A study of Bos taurus with 11 samples.

Results

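PPARs, retinoid X receptors (RXRs), retinoic acid receptors (RARs) and liver X receptors (LXRs) are transcription factors that a small lipid molecule switches on. The genes described are PPARA, PPARD, PPARG, RXRA, RXRB, RXRG, RARA, RARB, RARG and NR1H3, taken by gene symbol from a table of 16279 genes. All 10 were present, each on 1 line of the table, and none was chosen by a threshold on its values. Messenger RNA was measured by RNA sequencing after poly A selection in mammary tissue of untreated Holstein heifers of 10 to 12 months. Parenchyma, the epithelial portion with its ducts, came from heifers 1, 3, 4 and 5 (n = 4). Close stroma came from heifers 3, 4 and 5 (n = 3) and far stroma from heifers 1, 3, 4 and 5 (n = 4). The labels give no distance between the regions, and 3 of the 4 heifers gave all of them.

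PPARs bind fatty acids and their derivatives, RARs bind retinoic acid made from vitamin A, and LXRs bind oxidised forms of cholesterol. Each of them sits on DNA as a pair with an RXR, so that RXRs are the shared partner of the other families. PPARG drives the formation of fat cells and the storage of lipid in them, and the mammary ducts of a heifer grow into a pad of such fat. Without ligand these receptors recruit corepressors to their target genes, and with ligand they recruit coactivators.

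Recovered totals were 7274474 to 11156909 reads per sample, and the lowest was the far stroma of heifer 5. Far stroma samples had 672 to 1128 genes at 0, against 262 to 361 in parenchyma and 233 to 337 in close stroma. The part of this in the differences of genes with few reads was not tested. As a check of the regions, the 5 adipocyte markers (ADIPOQ, PLIN1, LEP, LIPE and CIDEC) summed to 414 to 497 normalised counts in parenchyma, 28510 to 110200 in close stroma and 119500 to 152500 in far stroma, and none of them was at 0 in any sample. The 5 luminal keratin and adhesion markers summed to 20240 to 25050 in parenchyma, 11100 to 19730 in close stroma and 139 to 258 in far stroma. The close stroma of heifer 3 stood apart from the other two, with an adipocyte sum of 110200 against 28510 in heifer 4 and 49370 in heifer 5. The column taken as the close stroma of heifer 4 carries a further letter in its name that the labels do not explain. Receptors called in a comparison with close stroma are therefore also given with the samples of heifers 3 and 4 left out. Blood endothelium markers summed to 5476 to 7017, 9542 to 22130 and 19570 to 29860 in parenchyma, close stroma and far stroma, and T cell markers to 3887 to 5171, 2164 to 2558 and 273 to 722 in the same order. Macrophage markers summed to 3098 to 4612, 2932 to 3989 and 2893 to 10130.

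Parenchyma had almost no RXRG messenger RNA, a small remainder of PPARG, and lower levels of NR1H3 and RXRA than far stroma, while RARG was higher. Of the 10 receptors, 4 were lower and 1 higher in parenchyma at an adjusted p under 0.05, and 5 did not pass. Among all 14596 genes tested, 24% were lower and 26.1% higher, or 50.1% in either direction, so that 5 receptors called of 10 is the share of genes in general (limma on log2 of the normalised count plus 1, Benjamini-Hochberg adjustment over all genes). What set the 4 lower receptors apart from each other was the size of the difference, which ran from 2.31-fold for RXRA to 450-fold for RXRG. The groups did not overlap for 4 lower receptors and 1 higher, or 5 in either direction, beside 21.5%, 24% and 45.5% of genes. The median difference over the 10 receptors was -0.21 on the log2 scale, and 0.06 over all genes tested.

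**Figure D1:**
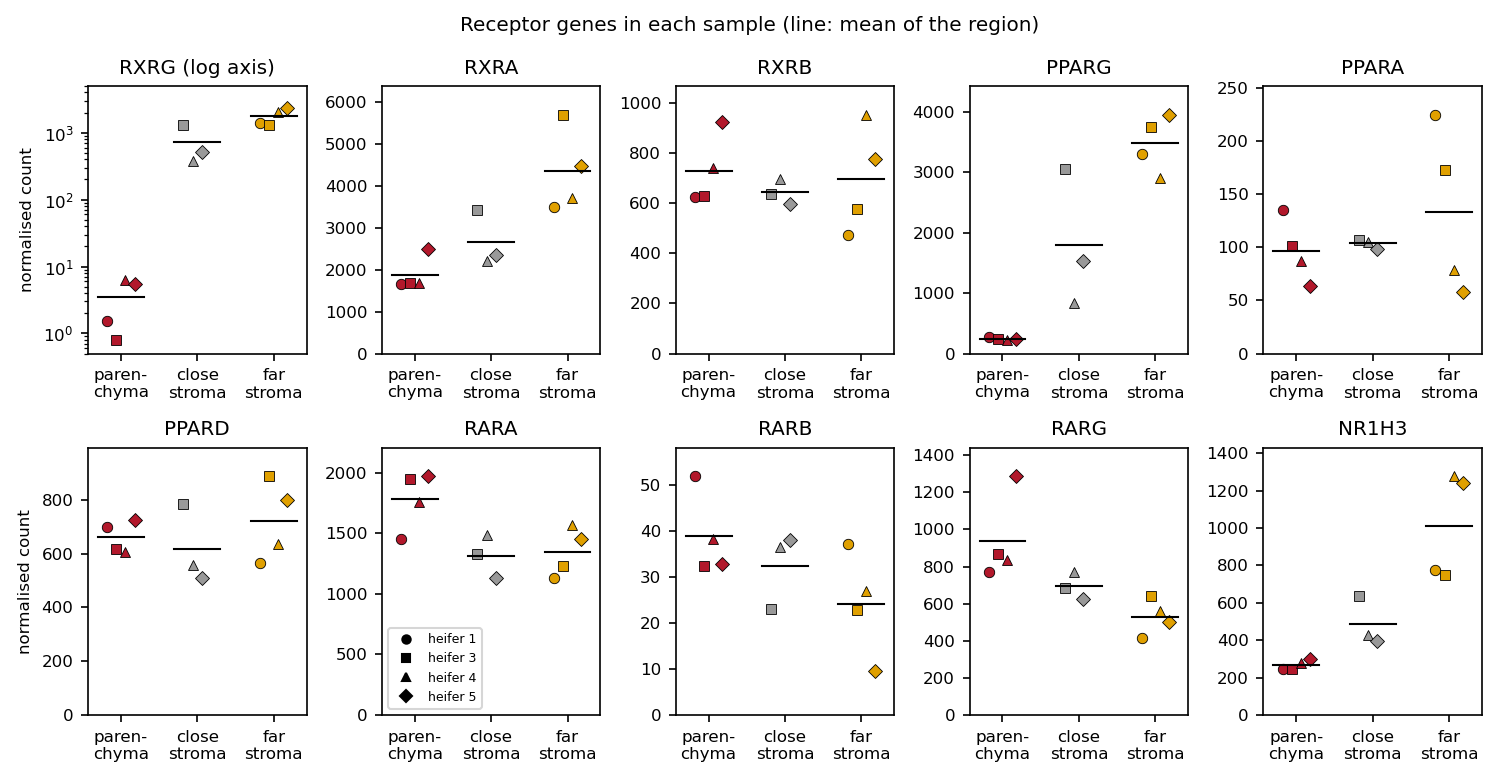
Normalised counts of the 10 receptor genes (vertical axis, logarithmic for RXRG and linear from 0 for the others) in each sample of parenchyma, close stroma and far stroma; symbols mark the heifer and lines the mean of a region. RXRG lay at 0.81 to 6.24 in parenchyma and at 1324 to 2340 in far stroma, while RXRB, PPARA and PPARD overlapped between all regions.

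RXRG (ENSBTAG00000016801) encodes the RXR that is elsewhere best known from muscle and brain. Parenchyma samples of heifers 1, 3, 4 and 5 had 1.51, 0.81, 6.24 and 5.49 normalised counts, close stroma samples of heifers 3, 4 and 5 had 1295, 373 and 517, and far stroma had 1380, 1324, 2038 and 2340 in the order of heifers 1, 3, 4 and 5. The 3 regions did not overlap, although the close stroma of heifer 3 lay just below the lowest far stroma sample. The parenchyma values rest on 2, 1, 7 and 6 reads, against 1103 to 1806 reads per sample in far stroma. The mean of RXRG in parenchyma, 3.51 ± 2.75, against 1771 ± 499 for far stroma (SD, n = 4 in both) corresponds to a fitted level 450-fold lower (log2 -8.81 ± 0.48 SE, limma adjusted p = 3.36e-08). A pseudocount of 5 in place of 1 gave a log2 difference of -7.72, since the parenchyma values are close to 0. Against the close stroma mean of 728.5 ± 496.1 (n = 3), parenchyma was 165-fold lower (log2 -7.37 ± 0.52, adjusted p = 4.69e-06).

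RXRA (ENSBTAG00000017851), the RXR made in most tissues, had 1651, 1678, 1677 and 2494 normalised counts in parenchyma, in the order of heifers 1, 3, 4 and 5 kept below. Its values were 3430, 2199 and 2349 in close stroma (heifers 3, 4 and 5) and 3496, 5693, 3709 and 4463 in far stroma. Parenchyma lay below far stroma in 4 of 4 heifers without overlap, and close stroma overlapped with parenchyma. The mean of 1875 ± 413 in parenchyma was 2.31-fold below that of 4340 ± 993 in far stroma (log2 -1.21 ± 0.21, adjusted p = 4.68e-04). RXRA did not pass between parenchyma and close stroma (log2 -0.50, 95% interval -0.99 to -0.003, adjusted p = 0.209).

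RXRB (ENSBTAG00000000602), the third RXR and likewise widely made, did not pass in any comparison. It was at 627, 628, 740 and 924 in parenchyma, at 639, 698 and 598 in close stroma and at 474, 579, 955 and 776 in far stroma. The groups overlapped throughout, and the log2 difference between parenchyma and far stroma was 0.10 with a 95% interval of -0.36 to 0.56.

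PPARG (ENSBTAG00000001333) had 278, 234, 219 and 239.9 normalised counts in parenchyma. It had 3042, 830 and 1521 in close stroma and 3293, 3748, 2909 and 3948 in far stroma. Every parenchyma sample lay below every stroma sample, while the close stroma of heifer 3 reached into the range of far stroma. Parenchyma averaged 243 ± 25.1 and far stroma 3475 ± 466, a 14.2-fold lower level (log2 -3.83 ± 0.30, adjusted p = 7.05e-07, lower in 4 of 4 heifers). Set against close stroma (1798 ± 1132, n = 3), the level in parenchyma was 6.45-fold lower (log2 -2.69 ± 0.32, adjusted p = 3.71e-04).

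PPARA, a receptor of fatty acid oxidation in liver and muscle, and PPARD, a widely made PPAR, did not pass in any comparison. PPARA (ENSBTAG00000008063) was at 135, 102, 87.4 and 63.2 in parenchyma, at 107, 105 and 98.7 in close stroma and at 225, 173, 79.0 and 58.1 in far stroma. Parenchyma was below far stroma in heifers 1 and 3 and above it in heifers 4 and 5, and the 95% interval of the log2 difference was -1.15 to 0.53. Its values descended from heifer 1 to 3, 4 and 5 in both parenchyma and far stroma, a pattern noticed after they were seen. A term for the animal beside the region did not pass for PPARA (limma F 6.16, unadjusted p = 0.0122, adjusted p = 0.271), and it was called for 0.253% of genes and for none of the receptors, of which no other had an unadjusted p under 0.05. PPARD (ENSBTAG00000017542) lay between 604 and 727 in parenchyma, 509 and 785 in close stroma and 564 and 888 in far stroma. Its interval of -0.51 to 0.29 is narrower, on the same log2 scale.

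NR1H3 (ENSBTAG00000010681) encodes the LXR of liver, fat and macrophages. Its values were 247, 246, 276 and 299 in parenchyma, 637, 427 and 398 in close stroma and 776, 749, 1278 and 1240 in far stroma. The 3 regions did not overlap and lay, low to high, in the order parenchyma, close stroma, far stroma. The parenchyma mean was 267 ± 25.7 and that of far stroma 1011 ± 287, a 3.67-fold lower level (log2 -1.88 ± 0.22, adjusted p = 1.73e-05, in 4 of 4 heifers). The step between parenchyma and close stroma (487 ± 130, n = 3) just passed (log2 -0.84 ± 0.23, adjusted p = 0.0491), but not with the heifer as a block (adjusted p = 0.0818). It also missed the threshold when any 1 of the 4 parenchyma or 3 close stroma samples was left out, with adjusted p of 0.0593 (without the close stroma of heifer 4) to 0.239 (without that of heifer 3). Of the macrophage markers, 2 of 5 were lower in parenchyma than in far stroma and 3 did not pass, beside 24% of all genes lower. The part of macrophages in the NR1H3 difference was not tested.

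The other LXR, NR1H2, is made in most tissues and was named here after its values were seen. It was at 1128, 1245, 1345 and 1696 in parenchyma, 1518, 1520 and 1204 in close stroma and 1656, 1559, 2654 and 2476 in far stroma. NR1H2 was lower in parenchyma than in far stroma in 4 of 4 heifers (log2 -0.60 ± 0.20, adjusted p = 0.0256), and the groups overlapped.

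RARG was the receptor that was higher in parenchyma. RARG (ENSBTAG00000007592), a receptor of epithelia such as skin, had 769.9, 867, 834 and 1287 in parenchyma. Close stroma had 684, 769 and 626, and far stroma had 416, 643, 559 and 502. No parenchyma sample overlapped with far stroma, and parenchyma averaged 939.5 ± 235.3 against 529.9 ± 95.7 (1.76-fold higher, log2 0.81 ± 0.19, adjusted p = 0.00319, higher in 4 of 4 heifers). RARG did not pass between parenchyma and close stroma (log2 0.41, adjusted p = 0.24) or between close and far stroma (0.40, adjusted p = 0.193). The luminal, basal and T cell markers, 5 of 5 in each list, were also higher in parenchyma than in far stroma, and their part in the RARG difference was not tested.

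RARA (ENSBTAG00000012500), the RAR found most widely, was at 1451, 1951, 1761 and 1973 in parenchyma, 1329, 1491 and 1132 in close stroma and 1134, 1230, 1568 and 1458 in far stroma. It was higher in parenchyma than in far stroma in 4 of 4 heifers, with some overlap between the groups. The difference of 0.41 ± 0.16 on the log2 scale missed the threshold (adjusted p = 0.0507) and passed with the heifer as a block (adjusted p = 0.0377). It also passed without the parenchyma of heifer 1 (0.0278) or the far stroma of heifer 4 (0.0323).

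RARB (ENSBTAG00000011518), itself a gene that retinoic acid induces, had the fewest reads of the RARs, with 36 to 69 in the parenchyma samples and 6 to 38 in the far stroma samples. Its normalised counts were 52.0, 32.5, 38.3 and 33.0 in parenchyma, 23.0, 36.6 and 38.0 in close stroma and 37.2, 22.8, 27.1 and 9.68 in far stroma. RARB was higher in parenchyma than in far stroma in 4 of 4 heifers but did not pass (log2 0.78 ± 0.38, 95% interval -0.05 to 1.61, adjusted p = 0.109), and with the far stroma of heifer 1 left out its adjusted p was 0.0431.

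The direction of the small differences depended on the scaling. With each library scaled to its total, the median difference of all genes between parenchyma and far stroma became 0.48, against 0.06 as deposited. RARA (0.83), RARB (1.19) and RXRB (0.52) then passed as higher beside RARG (1.24), PPARA and PPARD turned to positive values without passing, and RXRG, PPARG, NR1H3 and RXRA stayed lower (-8.45, -3.41, -1.45 and -0.78).

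**Figure D2:**
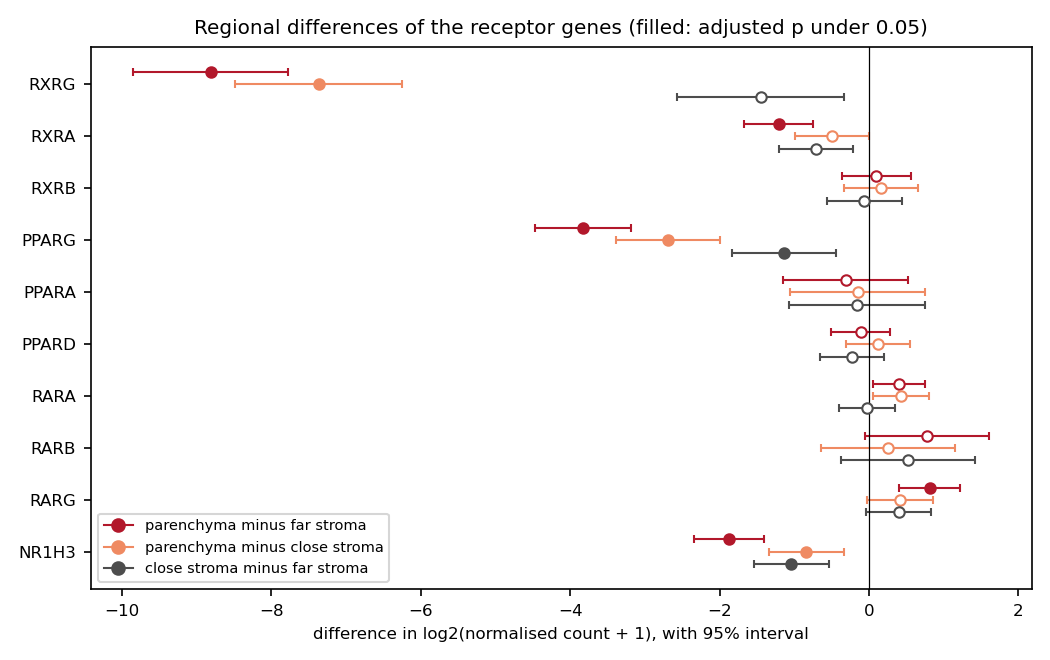
Difference in log2(normalised count + 1) of each receptor (horizontal axis) in the comparisons parenchyma minus far stroma, parenchyma minus close stroma and close stroma minus far stroma, with 95% intervals; filled points had an adjusted p under 0.05. RXRG (-8.81) and PPARG (-3.83) lie farthest to the left and RARG (0.81) is the filled point to the right.

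For the 5 receptors called between parenchyma and far stroma, the close stroma mean lay between the means of the other regions. Between parenchyma and close stroma, 3 receptors were lower (RXRG, PPARG and NR1H3) and 0 higher, beside 5.1% and 2.02% of all genes and 7.12% in either direction. edgeR with TMM scaling and DESeq2 also called 0 higher, and RARA had an unadjusted p under 0.05 (0.0262). The groups did not overlap for those 3 and for RARG, which was higher, where 13.4% and 12.8% of genes did not overlap in these directions and 26.2% in either. Without the close stroma of heifer 3 the log2 differences of RXRG and PPARG were -6.85 (adjusted p = 2.61e-05) and -2.21 (2.73e-04), and without that of heifer 4 they were -7.74 and -3.15. Between close and far stroma, limma called 2 receptors lower and 0 higher, beside 5.99% and 11% of all genes and 17% in either direction. The groups did not overlap for RXRG, RXRA and NR1H3, all lower, beside 9.17% of genes in that direction, 14.2% in the other and 23.3% in either. No receptor was higher at an unadjusted p under 0.05, or by edgeR or DESeq2, and 1 passed as higher (RARG, 0.74, adjusted p = 0.0166) with library-total scaling.

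In that comparison of close with far stroma, the lower receptors were NR1H3 (487 ± 130 against 1011 ± 287, log2 -1.04 ± 0.23, adjusted p = 0.00875) and PPARG (1798 ± 1132 against 3475 ± 466, log2 -1.14 ± 0.32, adjusted p = 0.0298). The groups overlapped for PPARG and not for NR1H3. PPARG was also not called by edgeR with TMM scaling (adjusted p = 0.0867) nor with the far stroma of heifer 3 (0.0567) or 5 (0.0711) left out. A limma fit of the 2 groups alone did not call PPARG either (adjusted p = 0.0909). Without the close stroma of heifer 3 the log2 differences were -1.62 for PPARG (adjusted p = 4.52e-04) and -1.25 for NR1H3 (0.00303). Without the close stroma of heifer 4 the adjusted p was 0.0511 for NR1H3 and 0.142 for PPARG, and without that of heifer 5 it was 0.055 and 0.0978. RXRG was 2.72-fold lower in close stroma without passing (log2 -1.45 ± 0.52, adjusted p = 0.0728), and RXRA was 1.63-fold lower without passing (-0.71 ± 0.23, adjusted p = 0.051). Without the close stroma of heifer 3 both passed (adjusted p = 0.0172 for RXRG and 0.0152 for RXRA), and RXRA also passed with the heifer as a block (adjusted p = 0.029). The luminal, basal and T cell markers, 5 of 5 in each list, were higher in close than in far stroma. Of the adipocyte markers 4 of 5 were lower there, and of the fibroblast markers 3 of 5. Between parenchyma and close stroma, 0 of 5 luminal and 0 of 5 basal markers were called, beside 7.12% of all genes in either direction. Their median log2 differences were 0.54 and 0.94, and the sums of both lists were higher in parenchyma without overlap. The part of these cell types in the receptor differences was not tested.

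Set against the same animal's far stroma, RXRG in parenchyma was in the range of the adipocyte markers or below it. PPARG kept a larger share than these markers, though not than every gene of fat storage. RXRG in parenchyma was 0.109, 0.0612, 0.306 and 0.235% of the far stroma of heifers 1, 3, 4 and 5, beside 0.186 to 0.357% for the lipid droplet protein CIDEC, 0.131 to 0.284% for leptin (LEP) and 0.444 to 0.594% for adiponectin (ADIPOQ). The RXRG shares rest on 2, 1, 7 and 6 parenchyma reads in that order, too few to rank RXRG against CIDEC and LEP. PPARG was at 8.45, 6.25, 7.54 and 6.08%, above all 5 adipocyte markers in each heifer, and so were NR1H3 (21.6 to 32.9%) and RXRA (29.5 to 55.9%). The fat storage genes LPL (10.8, 4.13, 12.8 and 5.48%) and CD36 (7.1, 5.54, 4.39 and 2.94%) kept shares of a size like that of PPARG. LPL lay above PPARG in heifers 1 and 4. FABP4 (0.228 to 1.26%) and PCK1 (0.162 to 0.589%) lay below PPARG. In the close stroma of heifers 3, 4 and 5, RXRG was at 97.8, 18.3 and 22.1% and PPARG at 81.2, 28.5 and 38.5%, beside 78.0, 21.0 and 40.4% for PLIN1, the coat protein of lipid droplets. Heifer 3 was highest in each of these series, as in its adipocyte markers. In bulk tissue, fewer cells of a type and less RNA per cell cannot be told apart, and all 5 adipocyte, all 5 blood endothelium and 4 of 5 fibroblast markers were lower in parenchyma than in far stroma. Their part in the receptor differences was not tested.

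**Figure D3:**
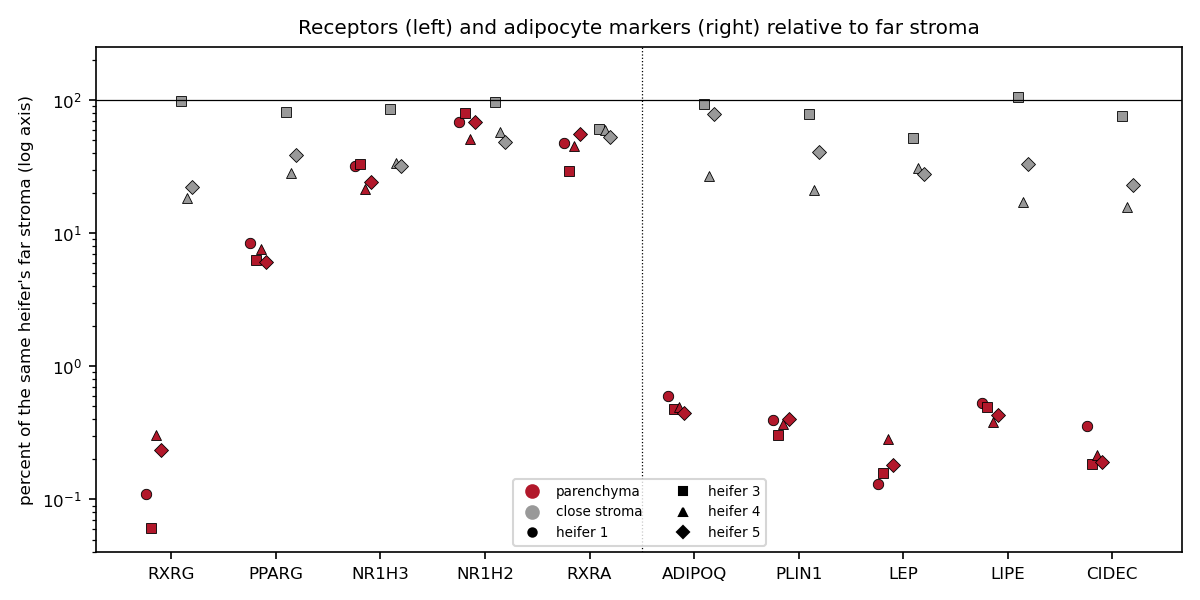
Level in parenchyma and in close stroma as a percent of the far stroma of the same heifer (logarithmic axis) for 5 receptors, left, and the 5 adipocyte markers, right. RXRG in parenchyma lies at 0.0612 to 0.306% (1 to 7 reads per sample), the markers at 0.131 to 0.594% and PPARG at 6.08 to 8.45%.

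The balance of receptors shifted between regions among the PPARs and RXRs, and the RAR ratios overlapped between parenchyma and far stroma. Because the size of a ratio between genes also depends on their lengths, only its change between regions is read, and no test was made. The log2 ratio of PPARG to PPARD was -1.44 ± 0.12 in parenchyma, 1.37 ± 0.71 in close stroma and 2.28 ± 0.20 in far stroma (SD), with no overlap between any of the 3 regions. The ratio of PPARG to PPARA was 1.04 to 1.92 in parenchyma, 2.98 to 4.82 in close stroma and 3.87 to 6.09 in far stroma on the log2 scale, so that the stroma regions overlapped.

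RXRG to RXRA lay between -11.02 and -8.07 in parenchyma, -2.56 and -1.41 in close stroma and -2.10 and -0.86 in far stroma on the log2 scale. RXRB to RXRA ran in the opposite direction, at -1.43 to -1.18 in parenchyma, -2.42 to -1.65 in close stroma and -3.30 to -1.96 in far stroma. Close and far stroma overlapped, and parenchyma stood above both. RARG to RARA averaged -0.94 ± 0.24 in parenchyma and -1.36 ± 0.28 in far stroma, where the far stroma of heifer 3, at -0.94, lay among the parenchyma samples. RARB to RARA overlapped between all regions.

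**Figure D4:**
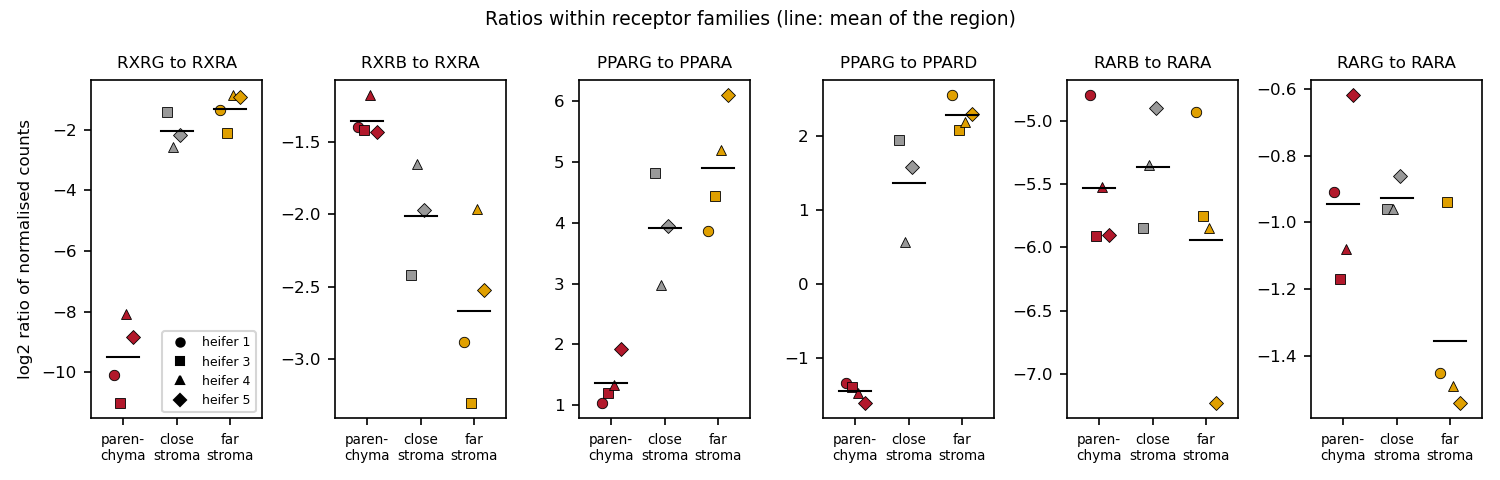
Log2 ratio of the normalised counts of 2 receptors of 1 family (vertical axes, each with its own range) in each sample of parenchyma, close stroma and far stroma; lines mark the mean of a region. PPARG to PPARD averaged -1.44, 1.37 and 2.28 in that order, without overlap, and RARB to RARA overlapped throughout.

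The genes whose pattern over the 11 samples was most like that of RXRG were SFRP5 (Pearson r of log2 values 0.995), CIDEC (0.994) and PPP1R1B (0.993), among 10909 genes with a mean of at least 50. SFRP5, a secreted WNT inhibitor made by fat cells, averaged 42.0 ± 15.9 in parenchyma, 1550 ± 1047 in close stroma and 4130 ± 571 in far stroma. For PPARG they were CCDC69 (0.997), the kinase gene DMPK (0.997) and CFL2 (0.996), an actin-severing protein of muscle. NR1H3 was most like ACVRL1 (0.995), a receptor of blood vessel walls at 623 ± 64.0, 1179 ± 408 and 2143 ± 570 in parenchyma, close stroma and far stroma, then ZFAND3 (0.992) and TAGLN2 (0.992). Those nearest to RXRA were PLEKHM2 (0.981), APEH (0.976) and RAB5B (0.974).

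Receptors with smaller regional differences had less close neighbours. RARG was most like UBA1 (0.974), MED16 (0.968) and DPAGT1 (0.962), RARA like ZDHHC5 (0.963), PAGR1 (0.962) and PPIL2 (0.961), and RARB like PKIB (0.966), TNFRSF11A (0.919) and ZNF184 (0.914). TNFRSF11A encodes RANK, the receptor of a mammary growth signal. RXRB was nearest to RALY (0.971), PRMT1 (0.961) and RNF25 (0.96), PPARA to MYO5A (0.933), DDR2 (0.924) and HIVEP2 (0.923), and PPARD to PRKACA (0.9), EMC9 (0.873) and SLC39A7 (0.849). All of these correlations are descriptions over the same 11 samples, which share 4 animals and 3 regions.

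Other partners of RXR differed in both directions. Of 9 listed, 6 were in the table, with 3 lower and 1 higher in parenchyma than in far stroma (median log2 -0.44, 0.06 for all genes). For this and the lists that follow, the shares among all genes in this comparison were 24% lower, 26.1% higher and 50.1% in either direction. VDR, the vitamin D receptor, averaged 721.5 ± 94.7 in parenchyma, 409 ± 114 in close stroma and 60.0 ± 10.7 in far stroma, without overlap between regions. It was higher in parenchyma than in far stroma (log2 3.57 ± 0.21, adjusted p = 6.24e-08) and in close than in far stroma (2.73 ± 0.22, adjusted p = 3.24e-06), and higher in parenchyma than in close stroma (0.85, adjusted p = 0.0393). That last call was lost with the heifer as a block, without any 1 of the 4 parenchyma samples and without the close stroma of heifer 3 or 5. Epithelial and T cell markers were also higher in parenchyma and in close stroma than in far stroma, and their part in the VDR differences was not tested. THRB, a thyroid hormone receptor, and NR4A1, an immediate early gene whose product can pair with RXR, were lower in parenchyma than in far stroma (-1.90 ± 0.37 and -2.45 ± 0.64), as was NR1H2. With 1 sample left out, the number of these partners called lower ran from 2 to 4.

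Of 14 coactivators and corepressors, 7 were higher in parenchyma than in far stroma and 7 did not pass (median log2 0.52), which is the share of calls in either direction among all genes (50.1%). The acetyltransferases CREBBP (2557 ± 341 against 1465 ± 437, log2 0.84 ± 0.22) and EP300 (1770 ± 290 against 1051 ± 416, 0.83 ± 0.26) and the coactivator NCOA2 (504 ± 99.7 against 248 ± 173, 1.32 ± 0.43) were among them. PPARGC1A, the PPAR coactivator of mitochondrial genes, was at 23.0 ± 7.87 and 46.8 ± 14.2 and did not pass (adjusted p = 0.0798, and 0.0341 with the heifer as a block). The count of 7 was fragile: it was 11 with library-total scaling and 4 by edgeR with RLE scaling. With 1 sample left out it ran from 1 (far stroma of heifer 5) to 9 (far stroma of heifer 1). It was 4 without the parenchyma of heifer 1. Leaving out the parenchyma of heifer 3 or 5 or the far stroma of heifer 4 gave 2.

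Of 11 tested genes that supply or carry ligands, 6 were lower in parenchyma than in far stroma and 1 higher (median log2 -1.40), beside 24% and 26.1% of all genes. RBP4, the carrier of vitamin A in blood, had a mean of 411 ± 112 in parenchyma against 24540 ± 12930 in far stroma (log2 -5.80 ± 0.40). ALDH1A2, an enzyme that makes retinoic acid, was at 2.33 ± 0.92 against 91.5 ± 44.0 (-4.70 ± 0.42), where the parenchyma value rests on 11 reads. In both regions, 2 other members of its family had more counts than ALDH1A2, and their means were also lower in parenchyma than in far stroma. ALDH1A1 was at 1095 ± 264 against 6353 ± 1110 and ALDH1A3 at 349 ± 88.9 against 403 ± 100.5. FABP5, a carrier of fatty acids and retinoic acid, was at 578 ± 25.0 against 8401 ± 4559 (-3.71 ± 0.35). The higher member was PTGDS, a prostaglandin synthase (1.18 ± 0.39, adjusted p = 0.0228), which was not called without the parenchyma of heifer 3 or 4 or the far stroma of heifer 1 or 3.

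**Figure D5:**
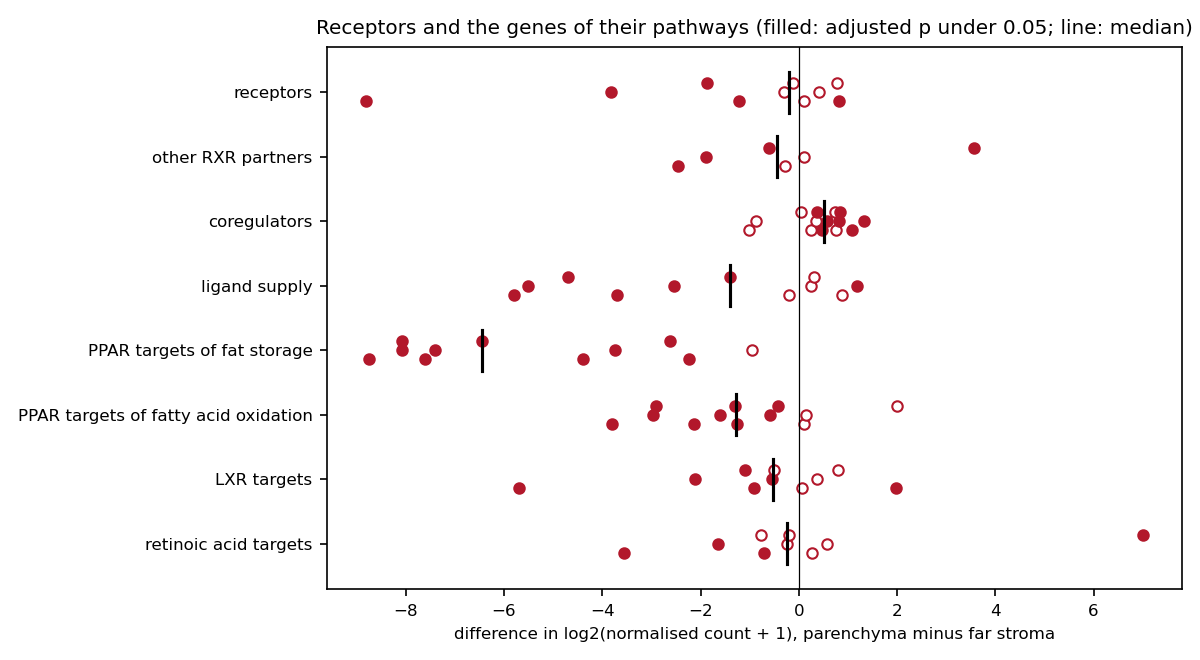
Difference in log2(normalised count + 1) between parenchyma and far stroma (horizontal axis) of each tested gene of the receptor list and the 7 lists around it; filled points had an adjusted p under 0.05 and lines mark medians. PPAR targets of fat storage have the lowest median (-6.45), and STRA6 (7.01) is the point farthest to the right.

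Among 11 tested PPAR targets of fat storage, 10 were lower in parenchyma than in far stroma and PLIN2, another coat protein of lipid droplets, did not pass (median log2 -6.45). Against close stroma the median was -4.75, again with 10 lower (8 without the sample of heifer 3 or heifer 5), beside 5.1% of all genes. CIDEC (-8.76 ± 0.34), PLIN1 (-8.08 ± 0.32) and ADIPOQ (-7.62 ± 0.33) had the smallest p in the list, and these 3 also stand among the adipocyte markers. Between close and far stroma 5 of the 11 were lower, beside 5.99% of all genes. With 1 close stroma sample left out, 8 were lower without heifer 3 and 0 without heifer 4 or heifer 5. With 1 far stroma sample left out, 3 were lower without heifer 4 and 2 without heifer 5. The number was 3 with library-total scaling, 1 by edgeR with TMM scaling and 0 in a fit of the 2 groups alone. PPAR targets of fatty acid oxidation were lower in parenchyma than in far stroma for 9 of 12, with 3 not passing (median -1.28), beside 24% of all genes. In other settings 1 member passed as higher, namely by edgeR with TMM or RLE scaling, by DESeq2, with the heifer as a block, with library-total scaling and with the parenchyma of heifer 5 left out. ACADL (40.4 ± 5.54 against 579 ± 95.8), PDK4, a brake on glucose oxidation (1575 ± 174 against 12450 ± 2882), and HADHA (1331 ± 104 against 5859 ± 853) had the smallest p.

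Of 10 tested LXR targets, 5 were lower in parenchyma than in far stroma, 1 was higher and 4 did not pass (median log2 -0.53), beside 24% and 26.1% of all genes. The number higher was 2 by DESeq2, with the heifer as a block, with library-total scaling, and with the parenchyma of heifer 1 or the far stroma of heifer 4 or 5 left out. The desaturase SCD (-5.70 ± 0.70) and MYLIP, which marks the LDL receptor for degradation (943 ± 142 against 1764 ± 244), were lower. PLTP, a phospholipid transfer protein, was higher (2511 ± 555 against 712 ± 370, log2 1.97 ± 0.35). The cholesterol exporters ABCA1 (0.36 ± 0.34, adjusted p = 0.394) and ABCG1 (-0.51 ± 0.38, adjusted p = 0.287) did not pass.

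Retinoic acid targets were lower for 3, higher for 1 and not passing for 5 of 9 tested (median log2 -0.23), beside 24% of all genes lower and 26.1% higher. CYP26B1, which degrades retinoic acid, averaged 28.8 ± 5.82 in parenchyma, 114.5 ± 54.7 in close stroma and 358 ± 109 in far stroma (parenchyma minus far stroma -3.57 ± 0.29, adjusted p = 1.06e-06). STRA6, the cell surface receptor that takes up vitamin A from RBP4, was at 431 ± 164, 81.1 ± 31.7 and 2.79 ± 2.03 in the same order (7.01 ± 0.51, adjusted p = 3.77e-07), where the far stroma value rests on 9 reads. RARRES2, the adipokine chemerin, was lower in parenchyma (-1.64 ± 0.24). With library-total scaling, 3 retinoic acid targets and 3 ligand genes were higher.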

How the data were processed

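Mammary RNA of 11 samples from 4 heifers was grouped by region from the sample titles. The deposited table gives a signal per gene that its header calls normalised counts; per the submitters' processing notes, cutadapt, STAR, HTSeq, DESeq2 and build ARS-UCD1.2 were used, without versions. A second deposited sheet holds other values, thresholds of the authors (adjusted p of 0.05, absolute log2 fold change of 1 and highest count of 30), which were not applied. For a step fitted to each column, taken as the worth of 1 read, 100% of entries were no more than 0.01 normalised counts from whole multiples, which served as reads.

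Log2(value + 1) was fitted with limma 3.58.1 (R 4.3.3) with a variance trend, 3 regions in 1 fit, for 14596 genes whose highest group mean was at least 10; all 10 receptors passed this filter. Means carry SDs and log2 differences SEs. P-values set each difference against the spread within regions, pooled over the 3 regions and drawn towards a trend over all genes. They are therefore not based on the spread of the 2 groups compared alone. The main fit has no term for the heifer, so its p-values treat the 11 samples as independent although they came from 4 animals. Alternatives on the recovered reads used edgeR 4.0.16, which with TMM scaling called 3737 genes higher and 3578 lower between parenchyma and far stroma (limma 3805 and 3501), and DESeq2 1.42.0. The fit was also run on simulated data with independent samples, no effect of the animal and few genes changed. That run therefore cannot show how the p-values behave when samples share animals and many genes differ. Heifer numbers name animals, so they pair samples: deviations from group means correlated at 0.117 to 0.383 in 10 same-heifer pairs and at -0.349 to 0.224 in 30 others.

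The receptors, the 7 pathway lists and the 8 marker lists were chosen with earlier results of these data known. Genes named are the receptors, called list members with the 3 smallest p, the 3 genes most like each receptor and cell type markers; others named were chosen after their values were seen. Skeletal muscle markers, of which 3 of 5 were in the table, summed to 49.8 to 85.2 in parenchyma, 45.1 to 75.2 in close stroma and 32.3 to 71.0 in far stroma, with CKM and MB at 0 in a parenchyma sample; fibroblast markers to 42040 to 102100, 36640 to 140300 and 141000 to 291700; and basal epithelium markers to 13170 to 18110, 3493 to 12550 and 10.8 to 32.3, with KRT14, TP63 and KRT17 at 0 in a far stroma sample. The sources used here do not say whether counting was strand-specific. In the RefSeq annotation of ARS-UCD2.0, PPARG, RXRG and RARB overlap a long noncoding RNA gene, whose reads cannot be told apart.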

Additional observations from a re-analysis of the deposited data

Results flagged for a closer look

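RXRA in the parenchyma of heifer 5 was at 2494 normalised counts, far from the 1651 to 1678 of the other 3 parenchyma samples. The gap to its nearest neighbour was 0.967 of the range of the 4 samples, above Dixon's 95% critical value. It was the 1 such group among 20 groups of 4 samples, and chance gives about 1 in 20. Heifer 5 was also the highest parenchyma sample for PPARD, RXRB, RARG, RARA and NR1H3, with smaller gaps.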

How the results depend on the processing

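Of 630 values of single receptors over 21 alternatives in 3 comparisons, 572 kept their direction and call, 18 passed anew, 20 lost their call and 20 changed sign. RXRG, PPARG, NR1H3, RXRA and RARG kept direction and call between parenchyma and far stroma under all 21. The values that changed sign were none of them called; the cause was not tested. With library-total scaling, which makes 75% rather than 52.1% of calls between parenchyma and far stroma higher and 90.2% rather than 64.6% between close and far stroma, they were PPARA 0.11 and PPARD 0.31 between parenchyma and far stroma, and PPARA 0.18, PPARD 0.12, RXRB 0.28 and RARA 0.31 between close and far stroma. Leaving out 1 sample gave ranges of -0.64 to 0.0102 for PPARA and -0.0654 to 0.27 for RXRB between parenchyma and far stroma, -0.33 to 0.0354 for PPARA and -0.0071 to 0.31 for PPARD between parenchyma and close stroma, and -0.49 to 0.16 for PPARA, -0.23 to 0.11 for RXRB and -0.12 to 0.0747 for RARA between close and far stroma.

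With the heifer as a block, 2 receptors in place of 1 were higher between parenchyma and far stroma; PPARA between close and far stroma became 0.0890, and 0.16 in heifers 3, 4 and 5 alone with the block. The block changed the call of RARA, NR1H3 and RXRA as given above and of no other receptor.

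Receptors higher between parenchyma and far stroma numbered 4 with library-total scaling, 2 by DESeq2 and 1 to 2 with 1 sample left out. Between close and far stroma, 1 was higher with library-total scaling; the number lower was 1 with that scaling, by edgeR with TMM or RLE scaling and in a fit of the 2 groups alone, 4 by DESeq2, and 0 to 4 with 1 sample left out (4 without the close stroma of heifer 3, 0 without that of heifer 4 or 5). Genes called between parenchyma and close stroma were 1039, against 2061 by DESeq2 and 379 to 1250 with 1 sample left out, and between close and far stroma 2475, against 1577 in a fit of the 2 groups alone and 1193 to 3618 with 1 sample left out. RXRG in parenchyma and RARB rest on few reads, which limits the precision of their differences.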
